A study of Mus musculus with 19 samples.

Results

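The genes of the proteasome were followed across 19 RNA sequencing libraries from the left prelimbic cortex of mice. They were the rows of the deposited count table whose symbol starts with Psm, a letter from a to g and a digit, with a mean of at least 1 CPM, a gene's count scaled to the total of its library. The pattern took 50 symbols of the 20938 in the table. Psmb8 and Psmb9 were left out by name and 2 fell under the floor, which left 46 genes. Just outside the floor lay Psmb11 at 0.156 CPM and Psma8 at 0.312 CPM, and just inside it lay Psmc3ip at 1.78 CPM and Psme2b at 1.94 CPM. All 46 were also among the 16417 genes that passed the filter for testing.

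4 kinds of mice were compared, all with 2 weeks of daily intraperitoneal injections. SCZ+c-MSST mice (4 libraries) received MK-801 at 0.2 mg/kg and the magnetic stimulation called c-MSST. SCZ mice (4 libraries) received MK-801 alone, Control+c-MSST mice (5 libraries) saline and c-MSST, and Control mice (6 libraries) saline alone. MK-801 blocks NMDA-type glutamate receptors and is used in rodents to model features of schizophrenia. In c-MSST, ferumoxytol, a suspension of iron oxide (γ-Fe2O3) nanoparticles, was put into the left prelimbic cortex by a single stereotactic injection, and the awake mouse was then kept under a pulsed magnetic field. Tissue was taken on day 3 after surgery. The labels give no strain, sex, age or batch. They give day 3 after surgery for every library, but do not say what was done at surgery in mice without c-MSST. Surgery, particles and field therefore cannot be told apart.

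The proteasome degrades proteins that carry ubiquitin chains. Its 20S core is a barrel of alpha rings, which gate the channel, around beta rings, of which the Psmb5, Psmb6 and Psmb7 products cut peptide bonds. The 19S cap is built of ATPases (Psmc genes), which unfold the substrate and open the gate, and of non-ATPase subunits (most Psmd genes), which bind and remove ubiquitin and give the cap its scaffold. Other caps (Psme genes) open the core without ubiquitin recognition, Psmf1 encodes the inhibitor PI31, and chaperones (Psmg genes, Psmd5, Psmd9, Psmd10) help assembly. Neurons use the proteasome in the turnover of synaptic proteins. By these roles the 46 genes were 7 alpha ring, 7 beta ring, 1 inducible beta (Psmb10), 6 ATPase, 11 non-ATPase, 6 activator or inhibitor and 7 chaperone genes, and Psmc3ip, whose product is known for a part in meiotic recombination and is not a proteasome subunit.

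Libraries held between 50140626 and 82416746 counts, and the fewest counts of any of the 46 genes in a library were 54, for Psmc3ip. The labelled cortex showed its markers, with Slc17a7 averaging between 980 and 1300 CPM in the 4 groups, and 8 markers of cortical excitatory neurons summed to 5416 to 6156 CPM in SCZ+c-MSST, 4827 to 5572 CPM in SCZ, 6187 to 6899 CPM in Control+c-MSST and 5147 to 7066 CPM in Control libraries. Markers of striatal neurons varied widely. Their summed level (12 genes) was 1217 to 2975 CPM in SCZ+c-MSST, 1933 to 2577 CPM in SCZ, 330 to 1894 CPM in Control+c-MSST and 249 to 2354 CPM in Control libraries. Markers of choroid plexus and ependyma (10 genes) summed to 8.85 to 1795 CPM in Control libraries and to at most 31.4 CPM in the other groups. In such bulk samples, fewer cells of a type and less RNA per cell cannot be told apart. Control replicate 1, the library of lowest depth, stood apart for the proteasome genes: on log2 CPM with library sizes scaled by TMM, it held the lowest of the 19 values for 19 of 46 (41.3%), against 11.9% of all genes tested, and on CPM without that scaling for 21. The counts over the 46 genes and the leading genes of each comparison with Control libraries are given with and without it. How these differences bear on the proteasome values was not tested beyond the fits described here.

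Levels between genes are given in the authors' FPKM, which is scaled to gene length, but the lengths used are not given. The length implied by mean CPM over mean FPKM differed by more than 2-fold from the merged exon bases for 17 of 46 genes. It was 11386 bases, against 837 exon bases, for Psme2b, 4212 against 555 for Psmg4 and 5745 against 1394 for Psmc5. Their FPKM thus lay below what those exon bases would give. For Psme4 it was 1841 against 8382, and its FPKM lay above. Whether another length or another assignment of reads lies behind these values was not tested. The order of these genes is therefore that of the deposited values and is uncertain. On that scale, subunits that share a complex differed in level. Psmd2 and Psmd1, the largest scaffold subunits of the cap, led with means over 19 libraries of 78.1 FPKM and 52.4 FPKM. Psme4, the activator PA200, followed at 51.6 FPKM, and Psmd8, Psmc3 and Psmb7 at 46.8, 45.6 and 45.6 FPKM. In these deposited values the alpha ring was the most even group, between 11.9 FPKM for Psma1 and 24.3 FPKM for Psma3. The beta ring ran from 8.92 FPKM for Psmb1 to 45.6 FPKM for Psmb7. The mean CPM of Psmb1 and Psmb7 were 66.7 and 64.9. Their implied lengths were 7474 bases against 4595 exon bases, and 1422 against 3421. The spread within a role is thus as uncertain as the order. ATPases lay between 17.4 FPKM (Psmc5) and 45.6 FPKM (Psmc3), and non-ATPase subunits between 7.31 and 78.1 FPKM. Chaperones were low, with a median of 4.74 FPKM and a highest value of 9.14 FPKM for Psmd9. Psme2, a subunit of the interferon-inducible activator PA28, had 2.26 FPKM, and Psme2b, a single-exon near copy of it, 0.17 FPKM. In the order by mean FPKM, the ranges of neighbours over the 19 libraries overlapped for 41 of 45 pairs, so that few steps in the order were clear of the spread.

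**Figure D1:**
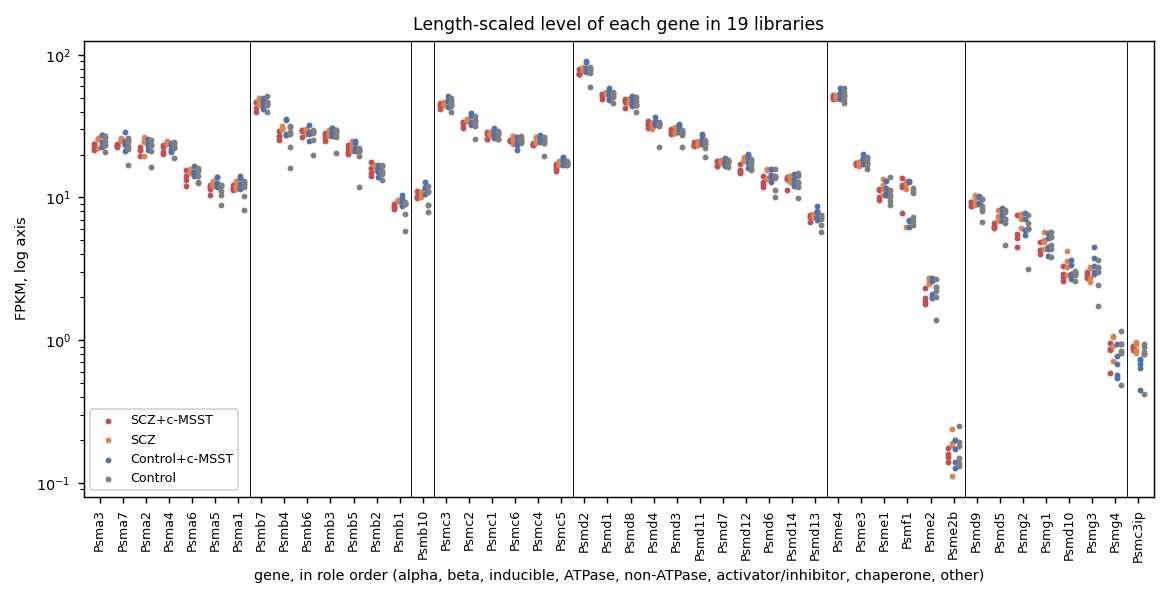
FPKM (log axis) of each of the 46 genes, in order of role and then of mean level, with 1 point per library, coloured by group (SCZ+c-MSST, SCZ, Control+c-MSST, Control). Psmd2 is highest at a mean of 78.1 FPKM and Psme2b lowest at 0.17 FPKM, and the groups overlap at nearly every gene.

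Promoters were read for motifs of 3 kinds in the 250 bases before the RefSeq start (GRCm38.p6), on both strands. TGACNNNGC is the core of the antioxidant response element, bound by NRF1 and NRF2 (Nfe2l1, Nfe2l2), which are known activators of proteasome genes; CCAAT is the box bound by NF-Y; CCGGAAG is a core bound by ETS factors. Of 39 promoters of these genes, 5 held the first (12.8%, against 10.1% of 27025 promoters of all genes and 11.8% of the 11146 promoters of genes at 1 CPM or more). For CCAAT it was 13 (33.3%, against 34.5% and 36.4%) and for CCGGAAG 12 (30.8%, against 7.05% and 12.7%). The motifs were spread by role: CCAAT stood in 5 of 7 alpha ring promoters, and CCGGAAG in 0 of 7 alpha ring and 0 of 4 beta ring promoters but in 3 of 5 ATPase and 5 of 9 non-ATPase promoters. The antioxidant core stood in the beta ring promoters of Psmb5 and Psmb6, whose products carry the chymotrypsin-like and caspase-like activities. It also stood in those of Psmc6, Psmd12 and Psmd9, which are cap or chaperone genes. Psmb7, whose product also cuts, had no promoter in the set that was read. No 2 of these motifs overlapped in a member's promoter. The 100 bases before the start are shown to mark where each motif stands. They are given for Psmb5 and Psmb6, for an alpha ring gene with CCAAT and for 3 cap genes with CCGGAAG. Capitals mark a motif on either strand, so that CTTCCGG is CCGGAAG read on the other strand. A match describes the letters and is not evidence of binding.
Psmb5 (20S beta ring, chr14:54617996-54618095, minus strand): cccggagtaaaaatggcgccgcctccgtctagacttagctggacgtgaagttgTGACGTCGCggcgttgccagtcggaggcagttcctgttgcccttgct
Psmb6 (20S beta ring, chr11:70525257-70525356, plus strand): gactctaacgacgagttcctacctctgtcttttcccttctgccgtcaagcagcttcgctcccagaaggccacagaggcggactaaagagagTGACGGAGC
Psma1 (20S alpha ring, chr7:114276117-114276216, minus strand): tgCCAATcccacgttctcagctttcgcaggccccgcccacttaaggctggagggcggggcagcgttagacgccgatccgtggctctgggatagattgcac
Psmc2 (19S ATPase, chr5:21785175-21785274, plus strand): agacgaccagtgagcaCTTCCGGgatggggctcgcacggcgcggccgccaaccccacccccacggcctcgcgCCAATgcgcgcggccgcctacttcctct
Psmd2 (19S non-ATPase, chr16:20651552-20651651, plus strand): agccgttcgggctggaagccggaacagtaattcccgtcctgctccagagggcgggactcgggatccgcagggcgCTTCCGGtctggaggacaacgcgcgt
Psmd11 (19S non-ATPase, chr11:80428515-80428614, plus strand): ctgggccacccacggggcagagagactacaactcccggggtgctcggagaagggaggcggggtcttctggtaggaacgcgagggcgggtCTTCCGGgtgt

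Across libraries the genes were steady. The within-group SD of log2 CPM had a median of 0.098 over the 46 genes and of 0.089 over the 31 constitutive core and cap subunits. It was 0.151 over the 12088 genes in the same range of mean CPM and 0.179 over all genes tested. Those 12088 genes were not matched on level within the range. Their median was 4.76 FPKM, against 17.6 FPKM for the 46 genes and 24.1 FPKM for the 31 subunits. The part of level in the lower SD was not tested. Psmd3, a cap scaffold subunit, varied least (SD 0.041 on the log2 scale), with 92.1 CPM at its lowest and 109 CPM at its highest. For 35 of 46 genes the highest library was less than 1.5 times the lowest. Psmf1 varied most (SD 0.46), followed by the low-level genes Psme2b, Psmg4 and Psmg2.

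**Figure D2:**
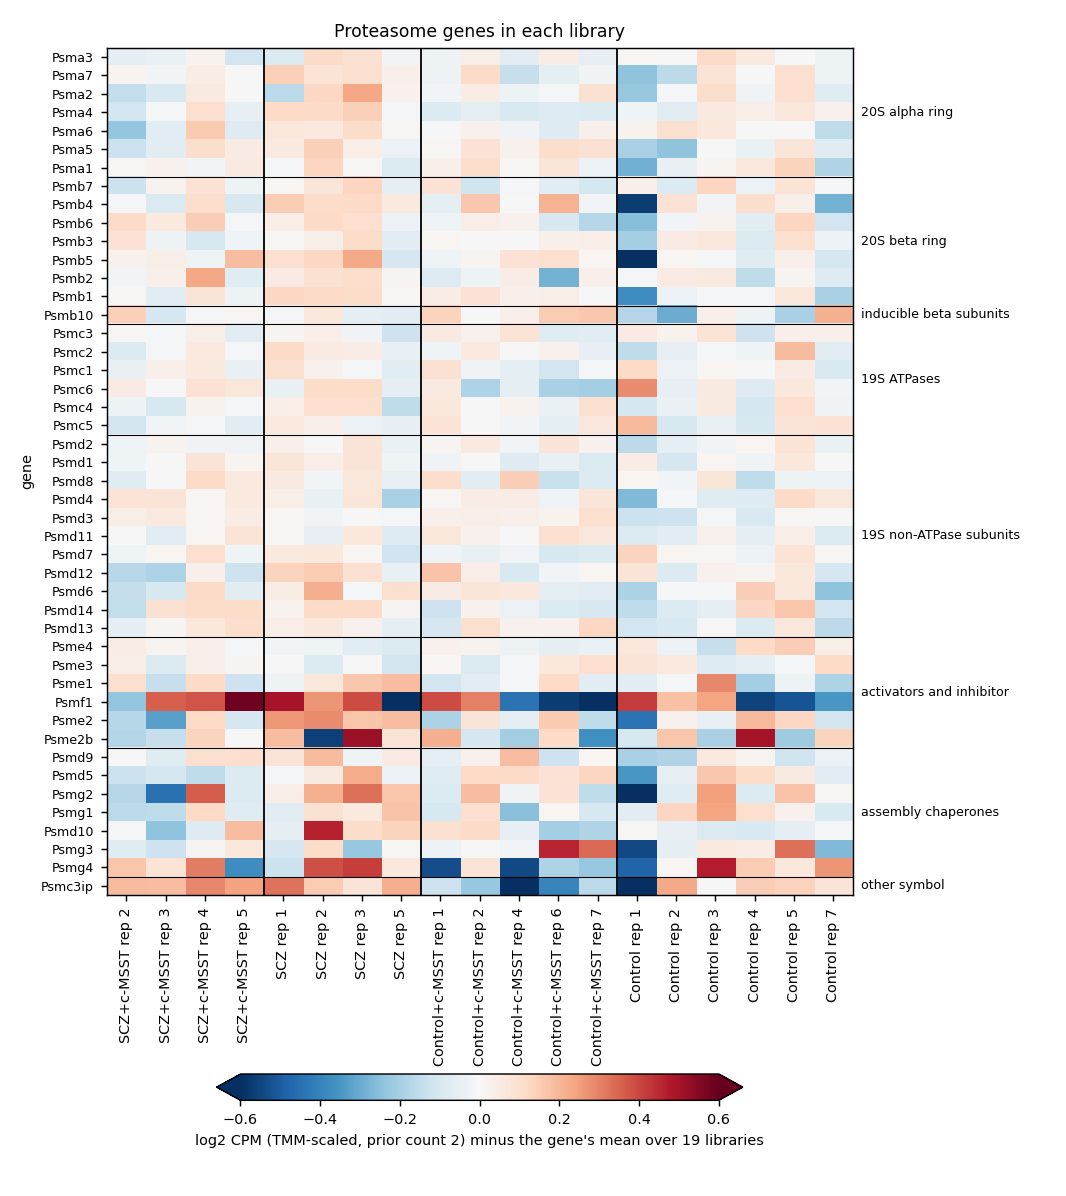
Heat map of log2 CPM (TMM-scaled library sizes) minus each gene's mean over the 19 libraries, with genes in rows by role and libraries in columns by group (SCZ+c-MSST, SCZ, Control+c-MSST, Control from left to right). Most cells lie near 0. Control replicate 1 is low across the beta ring and the chaperones, and Psmf1 has both high and low libraries in every group.

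The comparison of SCZ with Control mice asks what MK-801 changed without stimulation. No proteasome gene passed edgeR's quasi-likelihood test at an adjusted p under 0.05, adjusted over all genes tested: 0 of 46, where the test called 0 of 16417 genes (0%). DESeq2 and limma voom also called 0 of the 46, although DESeq2 called 243 genes overall and voom 1. At an unadjusted p under 0.05 there were 4 of 46 (all with positive fold changes), against 13.5% of all genes and 6.09% with positive fold changes. The fold changes were small and mostly positive: 39 of 46 were above 0 (84.8%, against 50.1% of all genes), with a median log2 fold change of 0.06, against 0.00047 over all genes. All 7 alpha ring genes (0.0016 to 0.13) and all 7 beta ring genes (0.02 to 0.20) had positive values, 10 of 11 non-ATPase genes did, and the ATPases were split 3 to 3. Without Control replicate 1 the positive values numbered 6 of 7 for each ring, 9 of 11 for non-ATPase genes, 5 of 6 for ATPases and 4 of 7 for chaperones, against 6 of 7 chaperones with it. No gene had groups that did not overlap, against 2.78% of all genes. For 43 of 46 genes the 95% interval lay within 0.5 log2 units of 0 on both sides, against 62.2% of all genes. The median SE was 0.063 over the 46 genes and 0.113 over all genes, and these sets were not matched on level.

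Psmb1, a beta ring subunit that does not cut, had the smallest p. It measured 72.5, 72.9, 73.2 and 70.0 CPM in SCZ libraries, against a lowest of 49.6, a median of 66.3 and a highest of 70.3 CPM in Control libraries. The groups overlapped only between SCZ replicate 5 and the highest Control library. The log2 fold change was 0.17 (SE 0.06, adjusted p = 0.251 by edgeR), and 0.12 without Control replicate 1 (adjusted p = 0.299 by edgeR). Psmb5, the chymotrypsin-like subunit, measured 39.0, 40.2, 43.5 and 35.4 CPM in SCZ libraries, against a lowest of 23.2, a median of 36.1 and a highest of 37.6 CPM in Control libraries. Its fold change of 0.20 (SE 0.09, adjusted p = 0.365 by edgeR) came to 0.12 without Control replicate 1, whose 23.2 CPM stood below the next Control library at 33.5 CPM. Psmb4, a structural beta subunit, had the same pattern, with 57.5, 56.2, 57.0 and 56.1 CPM in SCZ libraries, against 33.5, 52.9 and 56.3 CPM as the lowest, median and highest in Control libraries (log2 fold change 0.20, SE 0.10, and 0.12 without Control replicate 1). Psme2 measured 12.6, 12.9, 12.0 and 12.5 CPM in SCZ libraries, against 7.44, 10.6 and 12.2 CPM as lowest, median and highest in Control libraries. The log2 fold change was 0.25 (SE 0.11, adjusted p = 0.325 by edgeR), and 0.18 without Control replicate 1. Psmd10, the chaperone gankyrin, measured 8.97, 13.0, 10.2 and 10.7 CPM in SCZ libraries, against 8.86 to 9.12 CPM in Control libraries (log2 fold change 0.22, SE 0.10, adjusted p = 0.343 by edgeR, and 0.23 without Control replicate 1). The wide SCZ values reached into the Control range at replicate 1. At the other end, Psme4 had a fold change of -0.09 (SE 0.05) and Psmc3 of -0.04, and -0.08 and -0.03 without Control replicate 1. Without Control replicate 1, 36 of 46 genes had positive values with a median of 0.04, and 2 had an unadjusted p under 0.05 by edgeR. That number was 8 without Control replicate 3 (7 positive), 8 without Control replicate 5 (8 positive) and 1 without SCZ replicate 2. Over all genes edgeR called 94 without Control replicate 4 and 14 without Control replicate 5, with 0 of the 46 among them. With scores of the striatal, septal and choroid plexus markers as covariates, 34 of 46 were positive, the median was 0.06 and 0 genes of the 46 were called. All 8 cortical markers had negative values in this comparison (median -0.25) and all 12 striatal markers positive ones (median 1.19).

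Setting SCZ+c-MSST against SCZ mice asks what stimulation changed in treated mice, and it shares the SCZ libraries with the comparison just given. Again 0 of 46 genes were called by edgeR, where 0 of 16417 were (0%), and 0 by DESeq2 and by voom. At an unadjusted p under 0.05 there were 3, all with negative values, against 7.56% of all genes and 3.7% with negative values. Here 16 of 46 fold changes were positive (34.8%, against 47.4% of all genes) and the median was -0.04, against -0.0088 over all genes. Without SCZ replicate 5 it was 8 of 46 with a median of -0.07, and without SCZ replicate 3 it was 16 of 46 with a median of -0.02. Without SCZ+c-MSST replicate 4 it was 13 of 46 with a median of -0.06, and without SCZ+c-MSST replicate 2 it was 18 of 46 with a median of -0.02. The genes at an unadjusted p under 0.05 by edgeR then numbered 6 and 2. All 8 cortical markers had positive values here (median 0.19), and all 10 myelin markers (median -0.27) and all 7 septal markers (median -1.04) negative ones, and their part in the result was not tested beyond the fit with striatal, septal and choroid plexus scores as covariates (17 of 46 positive, median -0.03). Values were negative for 6 of 7 alpha ring, 6 of 7 beta ring and 6 of 7 chaperone genes, and 6 of 11 non-ATPase genes had positive values. In 6 of 46 genes every SCZ+c-MSST library lay below every SCZ library on CPM without TMM scaling, against 6.09% of all genes. TMM factors were 1.0025 to 1.045 in SCZ and 0.984 to 1.0029 in SCZ+c-MSST libraries, and a higher factor lowers the scaled values. Over all genes, 999 were lower without overlap and 439 higher. Overlap on TMM-scaled values was not read, so these separations may not hold on the scale of the fold changes.

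These 6 were spread over the roles: Psma7, Psmb4, Psmc5, Psmd2, Psmd5 and Psme2. Psme2 measured 9.33, 8.24, 11.4 and 9.62 CPM in SCZ+c-MSST libraries, against 12.6, 12.9, 12.0 and 12.5 CPM in SCZ libraries. Its log2 fold change of -0.34 (SE 0.12, 95% interval -0.59 to -0.08) had an adjusted p of 0.531 by edgeR. Psmd5, a chaperone that binds an ATPase during assembly of the cap base, measured 18.2, 18.2, 17.9 and 18.4 CPM in SCZ+c-MSST libraries, against 19.8, 20.9, 23.6 and 20.2 CPM in SCZ libraries (log2 fold change -0.18, SE 0.09, adjusted p = 0.672 by edgeR). Psmd2, the most abundant transcript of the set, measured 182, 185, 182 and 179 CPM in SCZ+c-MSST libraries, against 189, 187, 199 and 188 CPM in SCZ libraries. The libraries did not overlap on CPM without TMM scaling. SCZ replicate 5, at 188 CPM, had a TMM factor of 1.045, which lowers its scaled value. The log2 fold change, on TMM-scaled library sizes, was -0.03 with an interval of -0.12 to 0.07. Psma7, Psmb4 and Psmc5 had fold changes of -0.08, -0.13 and -0.05, each with an interval that held 0. The smallest p belonged to Psmd12, a cap scaffold subunit, with 42.2, 41.1, 48.5 and 42.8 CPM in SCZ+c-MSST libraries, against 52.1, 53.2, 51.5 and 48.0 CPM in SCZ libraries. Only SCZ+c-MSST replicate 4 reached the SCZ range (log2 fold change -0.19, SE 0.07, adjusted p = 0.489 by edgeR). Psma4, of the alpha ring, measured 40.9, 43.0, 47.1 and 41.8 CPM in SCZ+c-MSST libraries, against 47.9, 48.1, 49.7 and 45.5 CPM in SCZ libraries (log2 fold change -0.11, SE 0.05).

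**Figure D3:**
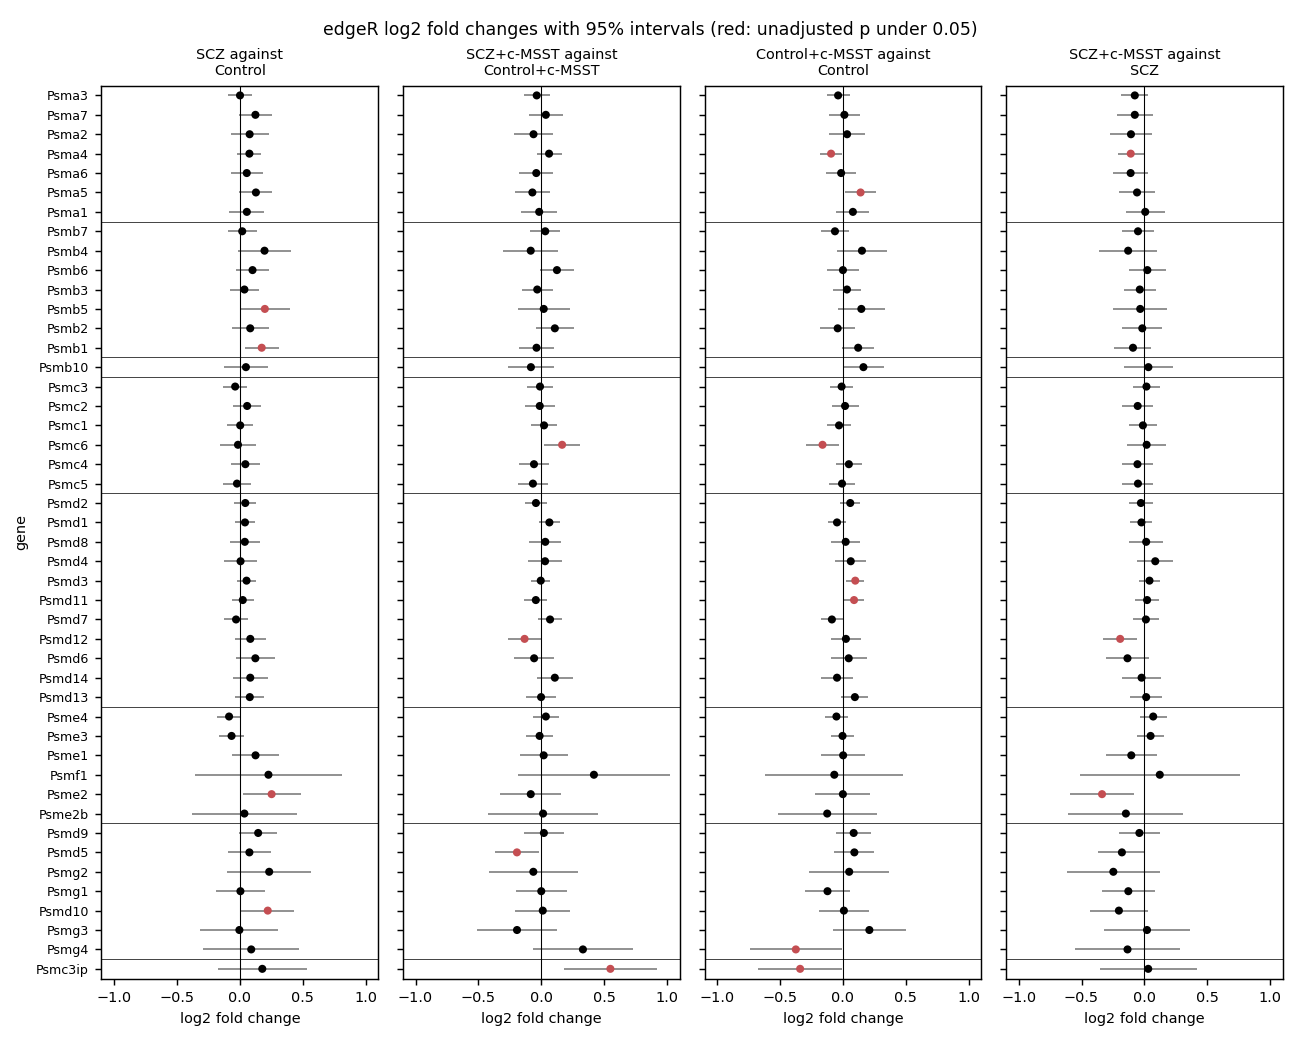
log2 fold changes (points) with 95% intervals (lines) of the 46 genes in 4 comparisons, from edgeR, with genes ordered by role; red points have an unadjusted p under 0.05. Nearly all points lie within 0.3 of 0, with 39 of 46 above 0 for SCZ against Control and 16 of 46 above 0 for SCZ+c-MSST against SCZ.

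Setting Control+c-MSST against Control mice asks what stimulation changed in saline mice. It was the comparison in which edgeR called genes at all, 54 of 16417 (0.329%), and 0 of the 46 were among them; DESeq2 called 567 genes and voom 35, and neither called one of the 46. The 54 depended on single libraries: edgeR called 0 genes without Control+c-MSST replicate 6, 3 without Control+c-MSST replicate 4 and 314 without Control replicate 7, and 0 with the tissue scores as covariates. An unadjusted p under 0.05 was reached by 7 of 46, against 16.6% of all genes. Of these, 3 had positive and 4 negative values, and 26 of 46 fold changes were positive (56.5%, against 47.1%) with a median of 0.0099, against -0.01 over all genes. Markers of several other tissues and cells had lower values in the same comparison. Negative log2 fold changes were those of all 10 choroid plexus (median -2.51), all 12 striatal (-0.18), all 7 septal (-0.84), all 10 myelin (-0.55) and all 6 astrocyte genes (-0.15). Positive values were those of 6 of 8 cortical (median 0.17), 5 of 6 microglia (0.09) and 2 of 5 endothelium markers (-0.05). Of all these markers 0 were called. With the tissue scores as covariates, 30 of the 46 proteasome genes had positive values and the median was 0.04. The part of the myelin and astrocyte genes in the result was not tested. Psmd3 measured 104, 106, 105, 104 and 109 CPM in Control+c-MSST libraries, against a lowest of 92.1, a median of 101 and a highest of 106 CPM in Control libraries. The groups overlapped, and the log2 fold change was 0.10 (SE 0.03, adjusted p = 0.155 by edgeR), and 0.08 without Control replicate 1. Psmc6, an ATPase, measured 65.4, 56.3, 60.6, 55.2 and 54.9 CPM in Control+c-MSST libraries, against 61.8, 65.2 and 75.3 CPM as lowest, median and highest in Control libraries. The log2 fold change was -0.16 (SE 0.06, adjusted p = 0.209 by edgeR) and -0.11 without Control replicate 1, which held the 75.3 CPM. Psma5, of the alpha ring, measured 33.0, 35.3, 33.5, 35.4 and 35.0 CPM in Control+c-MSST libraries, against 28.2, 32.2 and 35.4 CPM as lowest, median and highest in Control libraries (log2 fold change 0.14, SE 0.06, and 0.12 without Control replicate 1). The remaining 4 were Psmd11 (0.09, SE 0.04), Psma4 (-0.09, SE 0.04), Psmg4 (-0.37, SE 0.17), a low-level chaperone, and Psmc3ip (-0.34, SE 0.16). Without Control replicate 1 these 4 came to 0.08, -0.10, -0.47 and -0.44.

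Groups that did not overlap were found for 1 gene in this comparison, against 1.82% of all genes: Psmd7, a lid subunit of the cap, named here after its values were seen. Psmd7 measured 78.0, 78.1, 78.5, 74.5 and 75.2 CPM in Control+c-MSST libraries, against 80.0, 82.7 and 86.3 CPM as lowest, median and highest in Control libraries. Its log2 fold change was -0.09 (SE 0.04, adjusted p = 0.302 by edgeR), and -0.07 without Control replicate 1. Psmb10, the inducible beta subunit, had 16.6 ± 0.794 CPM in Control+c-MSST libraries (SD, n = 5) and 15.1 ± 2.00 CPM in Control libraries (SD, n = 6), with a log2 fold change of 0.16 and an interval of -0.00095 to 0.33, and 0.14 without Control replicate 1. Psmb7, the trypsin-like subunit, had -0.06 with and without that library. Without Control replicate 1, 22 of 46 fold changes were positive and the median was -0.0050, with 4 genes at an unadjusted p under 0.05. The count of positive values was 23 without Control+c-MSST replicate 1 or Control replicate 4, and 30 without Control+c-MSST replicate 6, so the balance of signs moved with several libraries.

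The comparison of SCZ+c-MSST with Control+c-MSST mice asks what MK-801 changed under stimulation. edgeR called 0 of 46 and 0 of 16417 genes (0%), and DESeq2 and voom called 0 of the 46. At an unadjusted p under 0.05 there were 4 of 46, against 11% of all genes. Fold changes were centred on 0, with 21 of 46 positive (45.7%, against 49.9%) and a median of -0.0036. Libraries did not overlap for 2 genes, against 4.62% of all genes. One was Psmc3ip, the non-subunit taken by the pattern, with 2.00, 1.96, 2.14 and 2.04 CPM in SCZ+c-MSST libraries, against 1.57, 1.48, 1.02, 1.3 and 1.53 CPM in Control+c-MSST libraries. Its log2 fold change of 0.55 (SE 0.18, 95% interval 0.18 to 0.92) was the farthest from 0 of any of the 46 in the 6 comparisons, at an adjusted p of 0.313 by edgeR. It shares 385 exon bases with Mlx on the opposite strand, and reads from those bases may belong to either. The other was Psmd5, with the 17.9 to 18.4 CPM given above in SCZ+c-MSST libraries, against 18.5, 21.5, 21.1, 20.8 and 21.4 CPM in Control+c-MSST libraries (log2 fold change -0.19, SE 0.08, adjusted p = 0.428 by edgeR). Psmc6 had a fold change of 0.16 (SE 0.07) and Psmd12 of -0.13 (SE 0.06), both with overlapping libraries.

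**Figure D4:**
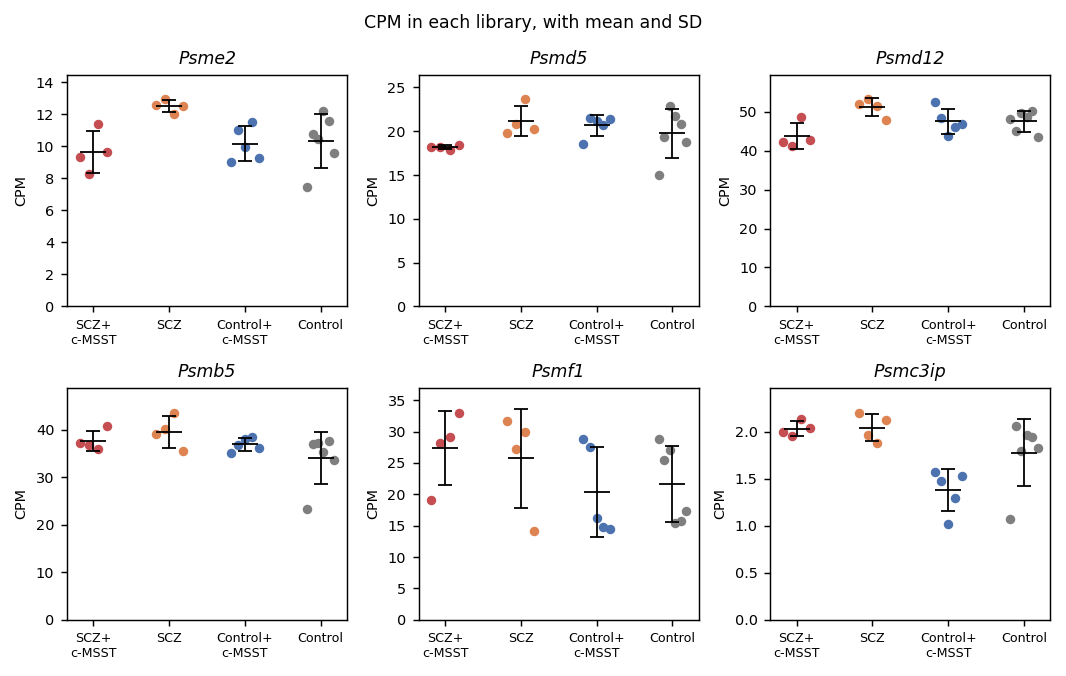
CPM of 6 genes in each library, with group means (bars) and SD (whiskers), for SCZ+c-MSST, SCZ, Control+c-MSST and Control from left to right. SCZ+c-MSST libraries of Psmd5 lie between 17.9 and 18.4 CPM, Psmf1 falls into a low and a high range within each group, and Control replicate 1 is the low point of Psmb5 at 23.2 CPM.

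Mice with both treatments were also set against Control mice, with 0 of 46 genes called by edgeR (0% of all genes), 0 by DESeq2 and 0 by voom, and with 1 at an unadjusted p under 0.05, against 10.1% of all genes. That gene was Psmd3, at 107, 107, 105 and 106 CPM in SCZ+c-MSST libraries, against the 92.1 to 106 CPM given above in Control libraries (log2 fold change 0.09, SE 0.04, adjusted p = 0.405 by edgeR), and 0.08 without Control replicate 1. Of the 46 fold changes 25 were positive, with a median of 0.0099 (22 and -0.0043 without Control replicate 1), and no gene had groups that did not overlap, against 1.64% of all genes. Without Control replicate 1, 2 genes had an unadjusted p under 0.05 by edgeR, Psmd3 and Psmd5 (-0.16). With the tissue scores as covariates it was 7, 4 positive and 3 negative, with 27 of 46 positive and a median of 0.03. The shares of all genes in these fits are not given here. All 12 striatal markers had positive values in this comparison (median 0.98) and all 10 choroid plexus markers negative ones (-2.37). The interaction, in which the c-MSST difference of saline mice is subtracted from that of MK-801 mice, called 0 of 46 by edgeR (0% of all genes), DESeq2 and voom, with 5 at an unadjusted p under 0.05, all negative, against 7.29% of all genes and 3.39% with negative values. These were Psmd12 at -0.22 (SE 0.09), Psmd5 at -0.27 (SE 0.12), Psmb1 at -0.21 (SE 0.09), Psma5 at -0.20 (SE 0.09) and Psme2 at -0.34 (SE 0.16) on the log2 scale, with adjusted p between 0.628 and 0.682 by edgeR. Without Control replicate 1, 4 genes had an unadjusted p under 0.05: Psmd12 (-0.23), Psmd5 (-0.21) and Psmb1 (-0.16) with negative values and Psmc3ip (0.47) with a positive one, while Psma5 (-0.18) and Psme2 (-0.27) no longer did. All 7 alpha ring genes had negative values and 15 of 46 genes positive ones (32.6%, against 50.3%), with a median of -0.07, and -0.04 without Control replicate 1. For 36 of 46 genes the interval of this difference lay within 0.5 log2 units of 0.

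Psmf1 differed from the rest in how it varied. Its levels were 19, 28.3, 29.1 and 33.0 CPM in SCZ+c-MSST libraries and 31.6, 27.2, 29.9 and 14.2 CPM in SCZ libraries. In Control+c-MSST libraries they were 28.9, 27.5, 16.2, 14.8 and 14.5 CPM, and Control libraries ran from 15.5 through a median of 21.4 to 28.9 CPM. The values formed a low range of 14.2 to 19 CPM and a high range of 25.5 to 33.0 CPM with none between, and every group had libraries in both. The low range held 1 of 4 SCZ+c-MSST, 1 of 4 SCZ, 3 of 5 Control+c-MSST and 3 of 6 Control libraries. The log2 fold change of SCZ+c-MSST against Control+c-MSST was 0.42 with an interval of -0.19 to 1.02. Psmf1 (chr2:151715812-151744186, minus strand, GENCODE M21 on GRCm38) shares no exon bases with another annotated gene. The ranges did not follow the groups, but in 3 groups they went with the replicate numbers of the labels: of the SCZ, Control+c-MSST and Control libraries, all 8 numbered 1 to 3 lay in the high range and all 7 numbered 4 or above in the low range. In SCZ+c-MSST, replicate 2 was low and replicates 3, 4 and 5 were high. This split was noticed after the values were seen, the labels do not say what the numbers stand for, and its part in the comparisons of Psmf1 was not tested beyond the fit with the number as a block, in which the fold change of SCZ+c-MSST against Control+c-MSST was 0.45 (SE 0.27).

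Control replicate 1 did not lower all roles alike. Its mean log2 departure from the gene means was -0.33 for the chaperones, -0.28 for the beta ring, -0.13 for the alpha ring, -0.07 for non-ATPase subunits and 0.06 for the ATPases. On the TMM-scaled values it was the lowest of the 19 libraries for 5 of 7 beta ring, 4 of 7 chaperone, 5 of 11 non-ATPase, 3 of 7 alpha ring and 1 of 6 ATPase genes, and the highest for 3 of the 6 ATPases. On CPM without that scaling it was the lowest for 4 alpha ring and 2 ATPase genes and the highest for 2 ATPases, with the other roles named here alike. When 14054 genes at 1 CPM or more were split by the length that their FPKM imply into 5 classes of near-equal size, 31 of the 46 fell in the shortest class, whose median departure in this library was -0.02, against 0.0035 to 0.02 in the other classes. The part of gene length in its low values was not tested further.

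Genes that work with the proteasome were given from lists. Of 17 partners outside the symbol pattern, 13 regulators and 10 genes of ubiquitin and p97, edgeR called 0 in each of the 6 comparisons. Sem1, the smallest cap subunit, averaged 27.2 ± 0.437 CPM in SCZ libraries (SD, n = 4) and 23.4 ± 1.93 CPM in Control libraries (SD, n = 6), a difference of 0.19 on the log2 scale (SE 0.06, adjusted p = 0.194 by edgeR), and 0.17 without Control replicate 1. In SCZ+c-MSST libraries it averaged 23.6 ± 1.66 CPM (n = 4), a fold change of -0.17 (SE 0.07) against the same SCZ libraries. Ubqln2, a shuttle that carries ubiquitinated proteins to the proteasome, averaged 245 ± 6.92 CPM in SCZ+c-MSST libraries (n = 4) and 225 ± 8.24 CPM in Control libraries (n = 6), a difference of 0.14 on the log2 scale (SE 0.04, adjusted p = 0.271 by edgeR), and 0.14 also without Control replicate 1. Among the regulators, Maff, a small MAF protein that pairs with NRF1 and NRF2, had the smallest p. It averaged 7.62 ± 0.809 CPM in SCZ+c-MSST libraries (n = 4) and 1.80 ± 0.488 CPM in SCZ libraries (n = 4), which gave a log2 value of 2.12 for the fold change (SE 0.45, adjusted p = 0.197 by edgeR). Control+c-MSST libraries averaged 2.7 ± 1.22 CPM and Control libraries 4.14 ± 2.67 CPM. Its relative Mafk had 0.35 (SE 0.14) for SCZ+c-MSST against SCZ. Nfe2l1, which encodes NRF1, had fold changes between -0.01 and 0.11 in the 5 comparisons of groups. Rps27a, a source of ubiquitin, averaged 62.5 ± 1.80 CPM in SCZ libraries (n = 4) and 53.5 ± 8.44 CPM in Control libraries (n = 6), a log2 fold change of 0.20 (SE 0.08), and 0.13 without Control replicate 1. Nploc4, a cofactor of p97, had -0.10 (SE 0.05) in the same comparison, with and without that library.

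All 46 genes have a locus in GENCODE M21 (GRCm38), on 16 chromosomes, and 13 share exon bases with another gene, 10 of them with a gene on the opposite strand. The library kit keeps strand, but use of strand in the counting is not given in the labels, so such reads may belong to either gene. The longest shared stretches were those of Psmd9 with Gm26745 (1849 bases), Psmb7 with Nek6 (405), Psmc3ip with Mlx (385) and Psmd13 with Sirt3 (342). Psme2 (chr14:55587441-55591113, minus strand) and its near copy Psme2b (chr11:48945354-48946190, minus strand) may exchange reads, which makes the low values of Psme2b in particular uncertain.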

How the data were processed

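RNA was sequenced from 19 left prelimbic cortex libraries, grouped by their titles. The labels do not tie replicate numbers to shared litters or days, and p-values set differences between groups against the spread between these libraries. The authors deposited estimated counts per gene and FPKM values per gene, the latter scaled to gene length and depth. The submitters' processing notes list mm10 and the tools StringTie 1.3.5, Picard 2.18.29, STAR 2.7.7a and fastp 0.19.5, with no order of steps; annotation and strand setting are not stated there. Library totals were 50140626 to 82416746 counts, and the deposited counts were whole numbers. A count of 0 would allow up to 3 counts, for counting error only.

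CPM was computed as count over column sum, and overlap of libraries was read on these values, without TMM scaling. edgeR 4.0.16 in R 4.3.3 was run on all genes kept by filterByExpr (16417), with TMM, 1 coefficient per group and a robust quasi-likelihood fit (glmQLFit, glmQLFTest), and p-values were adjusted by Benjamini-Hochberg over all of them. It was tested on simulated data. Departures, their extremes and within-group SDs use log2 CPM with library sizes scaled by TMM and a prior count of 2. Alternatives were DESeq2 1.42.0, limma voom (limma 3.58.1), limma on log2(FPKM + 1) and log2(FPKM + 0.1), other normalizations and filters, a replicate block, tissue scores as covariates and leaving out libraries. Members are not replicates of a condition, so lists are given as counts and medians, beside all genes. The members and lists were chosen with earlier results of these data known. Genes named were, in each role, the 2 with the highest mean FPKM and the 3 with the smallest p over the 6 comparisons. Promoters were taken from RefSeq (GRCm38.p6) and loci from GENCODE M21, both on the build the authors used. Among the members, promoters on chromosome 18 were not used, which left out Psmg2. That rule was not applied to the promoters of all genes. Psmb1, Psmb2, Psmb7, Psmc3, Psmd3 and Psmd7 had no promoter in the set that was read.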

Additional observations from a re-analysis of the deposited data

Results flagged for a closer look

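Single libraries stood apart from the rest of their group for 4 of the 116 combinations of a named gene and a group, and for 7 of 184 over all 46 genes; chance alone gives about 1 in 20. Psmb5, the chymotrypsin-like subunit, had 23.2 CPM in Control replicate 1, where the other Control libraries lay between 33.5 and 37.6 CPM. The same library had 1.08 CPM of Psmc3ip, with the other Control libraries between 1.8 and 2.07 CPM. Psmd1, a scaffold subunit of the cap, had 170 CPM in SCZ+c-MSST replicate 4, with the other 3 libraries of that group between 158 and 160 CPM. Psmd5, a chaperone of the cap base, had 18.5 CPM in Control+c-MSST replicate 1, with the other 4 libraries of that group between 20.8 and 21.5 CPM. That value lies next to the 17.9 to 18.4 CPM of the SCZ+c-MSST libraries. What set these libraries apart was not tested.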

How the results depend on the processing

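In all 6 comparisons and under all 30 alternatives, 0 of the 46 genes were called. Leaving out 1 library at a time moved the median log2 fold change of the 46 genes between 0.04 and 0.09 for SCZ against Control, -0.07 and -0.02 for SCZ+c-MSST against SCZ, -0.0050 and 0.03 for Control+c-MSST against Control, -0.02 and 0.01 for SCZ+c-MSST against Control+c-MSST, -0.0065 and 0.03 for SCZ+c-MSST against Control, and -0.09 and -0.04 for the interaction. On the FPKM scale (log2(FPKM + 1), then log2(FPKM + 0.1)) the medians were -0.0918 and -0.0982 for SCZ+c-MSST against Control+c-MSST, 0.0838 and 0.0893 for Control+c-MSST against Control, and -0.191 and -0.203 for the interaction. On that scale the median over all genes also moved, to -0.125 at the most, for the interaction with a pseudocount of 0.1. Signs reversed there for Psmb7 (Control+c-MSST against Control, 0.0145 and 0.0148), Psmc3 (SCZ against Control, 0.000617 and 0.000692, and 0.0124 with tissue scores as covariates) and Psmd1 (SCZ+c-MSST against Control+c-MSST, -0.0316 and -0.0321). The cause was not tested. Without Control replicate 1, an alternative chosen after seeing the data for the role medians, the medians for SCZ against Control were 0.083 for the beta ring, against 0.10 with it, 0.017 for chaperones, against 0.09, and 0.02 for ATPases, against -0.0057.

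With the replicate number as a block, medians were 0.0594 for SCZ against Control, -0.0277 for SCZ+c-MSST against Control+c-MSST, 0.0305 for Control+c-MSST against Control, -0.0511 for SCZ+c-MSST against SCZ, -0.0015 for SCZ+c-MSST against Control and -0.082 for the interaction. The block called 0 members, and 0 genes overall for Control+c-MSST against Control, against 54 without it. Over all genes tested, same-numbered libraries did not deviate together (median r -0.0108 over 19 pairs of libraries, 1 pair over 0.1), and 2 of 19 libraries correlated best with their own number. These correlations match equal numbers only, so they cannot show a split such as that of Psmf1 between numbers 1 to 3 and 4 to 7.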
